A study of Nannospalax ehrenbergi and Mus musculus with 14 samples.

Results

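The muscle microRNAs miR-1a-3p, miR-133a-3p and miR-133a-5p were followed through all libraries of a microRNA sequencing experiment in the blind mole rat *Spalax* and in mice. They were chosen by name as the main products of the miR-1 and miR-133a genes, and they are 3 of the 1326 mouse microRNA names listed in each of the deposited tables. Each of them had reads in every library of the uninjected side and passed the filter on low values in both species.

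The experiment compared the injected side (IS), where a tumor had grown after the carcinogen 3-methylcholanthrene (3MCA) was injected once under the skin of the left flank of the neck, with the uninjected side (UIS) of the same animals. Animals are named by species and number. *Spalax* granulomas, which are benign, came from the females Sp600 and Sp976, operated on 14 and 16 months after the injection. *Spalax* fibrosarcomas, which are malignant, came from the female Sp2240 and the male Sp2230, operated on after 18 and 30 months. Mouse fibrosarcomas came from the C57BL/6 males M1019, M1023 and M512, operated on after 14, 12 and 11 weeks. All animals had received 3MCA, 1 mg in 500 μl for *Spalax* and 200 μg in 200 μl for mice, so the UIS is the opposite side of a treated animal and not an untreated control. The *Spalax* of the study were caught in the field and were of estimated ages from about 2 to 10 or more years, whereas the mice were 3 to 4 months old. One mouse UIS library carries an animal number in the deposited table that is in no label, and it was kept as an unpaired replicate. GEO's labels call the tissue of both sides muscle. The other skeletal muscle markers miR-206-3p, miR-133b-3p, miR-208b-3p and miR-499-5p took 0.336% to 0.717% of the reads at the UIS, but only 0.000255% to 0.000773% in the lesions of Sp976, Sp2230, Sp2240 and M1019, which thus nearly lacked them. The lesions of Sp600 and M1023 held 0.00602% and 0.0820%, and that of M512, at 0.519%, lay above every mouse UIS library (0.336% to 0.386%). The place of M512 depends on the scaling. With the size factors of the deposited values, miR-133b-3p, most of this sum, stood at 17.6% of the UIS level in M512. miR-206-3p, miR-208b-3p and miR-499-5p stood at 260%, 706% and 139%. The samples are bulk tissue, in which fewer muscle cells and less microRNA per muscle cell cannot be told apart. *Spalax* reads carry mouse microRNA names, and what this does to their levels was not tested.

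MicroRNAs of the miR-1 and miR-133 families are made in skeletal and heart muscle, where myogenic transcription factors such as MyoD, MEF2 and SRF switch on genes that carry both families in a single transcript. During muscle differentiation miR-1 is known to favor the differentiation of myoblasts and miR-133 their proliferation. A microRNA hairpin is cut into a 5p and a 3p strand, of which usually only one is loaded into the silencing complex and kept. The related pair miR-206 and miR-133b is made in skeletal muscle from another gene and is known for its rise in regenerating muscle.

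The arms of the hairpins show how closely these microRNAs resemble each other and where reads could be assigned to either of a pair. In the mouse genome (GRCm38, GENCODE M21 annotation) Mir1a-1 lies at chr2:180389048-180389124 and Mir133a-2 at chr2:180398379-180398482, both on the plus strand and 9254 bases apart, and no other annotated gene overlaps them. Mir206 at chr1:20679010-20679082 and Mir133b at chr1:20682769-20682887, 3686 bases apart on the plus strand, lie in exons of the long noncoding RNA Gm28653. Stretches of 22 bases are given from each arm, 5′ to 3′ in DNA letters as in the reference, with the bases that differ between the compared genes in capitals. They are stretches of the hairpins and not the annotated mature microRNAs.
Mir1a-1 3p arm, chr2:180389093-180389114: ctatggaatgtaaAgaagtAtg
Mir206 3p arm, chr1:20679052-20679073: ctatggaatgtaaGgaagtGtg
Mir133a-2 3p arm, chr2:180398437-180398458: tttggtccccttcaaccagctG
Mir133b 3p arm, chr1:20682834-20682855: tttggtccccttcaaccagctA
Mir133a-2 5p arm, chr2:180398401-180398422: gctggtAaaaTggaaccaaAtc
Mir133b 5p arm, chr1:20682797-20682818: gctggtCaaaCggaaccaaGtc

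Positions are counted from 1 at the 5′ end of each stretch, with the first gene's base first, and bases outside the stretches were not compared. Within the stretches, the 3p arms of Mir1a-1 and Mir206 differed by A14G and A20G and those of Mir133a-2 and Mir133b by G22A alone. The 3p arms of miR-133a and miR-133b thus shared their first 21 bases, and reads that end before the last base cannot be assigned to either. The 5p arms of Mir133a-2 and Mir133b differed by A7C, T11C and A20G. Each of the Mir1a-1 and Mir133a-2 stretches was also found unchanged in the second mouse copy of its gene, so reads of these strands cannot be divided between the copies.

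The libraries held 2034574 to 13982842 reads on microRNAs, with 2034574 to 9574014 at the IS and 11446933 to 13982842 at the UIS, and the 10 most abundant microRNAs took 46.8% to 86.3% of them. Each deposited value is a read number over the size factor of its library and is called a normalized count here, and the whole reads were recovered from it. Shares are given as percent of a library's microRNA reads. Intervals of single values are exact 95% intervals, and like bounds from 0 reads they cover counting error only, since reads have no molecular identifiers. A fold against 0 reads was computed against 3 reads in that library. Of the lists of microRNAs that mark other cell types, 2 were higher at every IS than at every UIS. Summed over the list, fibroblast markers (miR-199a and miR-214, 4 names) took 0.231% to 1.00% of the reads at the UIS and 3.04% to 11.1% at the IS, and leukocyte markers (miR-223, miR-142a and miR-150, 5 names) 0.0601% to 0.103% and 0.325% to 2.39%, with none of these names at 0 in all libraries of a group. Summed red cell markers (4 names) took less at the IS in each species, 1.46% to 2.67% at the UIS against 0.267% to 1.28% at the IS in *Spalax* and 7.17% to 18.0% against 0.588% to 3.32% in mice. At the UIS most of this sum was miR-486a-5p, which is also enriched in muscle. Its mean UIS share was 1.57% and 1.69% in granuloma- and fibrosarcoma-bearing *Spalax* and 10.9% in mice. The other red cell names were not summed without it, so the sum does not show that they fell. Over both species, smooth muscle markers (1.68% to 4.06% at the UIS, 1.17% to 3.45% at the IS), endothelial markers (0.323% to 1.10% and 0.343% to 1.64%) and epithelial markers (0.000424% to 0.0179% and 0.00171% to 0.0197%) overlapped between the sides. Their part in the differences below was not tested.

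miR-133a-3p was the most abundant microRNA in all 7 UIS libraries. It took 34.8% and 33.5% of the reads at the UIS of the granuloma-bearing Sp600 and Sp976. The fibrosarcoma-bearing Sp2230 and Sp2240 had 33.2% and 34.5%, and M1023 and M512 and the unpaired library 27.4%, 26.9% and 28.6%. The share was thus nearly even within a species, and the *Spalax* libraries all lay above the mouse libraries. This order depends on the total: with the 10 most abundant other microRNAs left out of it, the 3 microRNAs together took 63.2% to 66.6% of the reads at the *Spalax* UIS, 61.0% in M1023, 69.9% in M512 and 59.7% in the unpaired library. miR-1a-3p came far behind and ranked between 8 and 21 by reads. Its UIS shares were 1.89% in Sp600, 1.09% in Sp976, 1.32% in Sp2230 and 1.25% in Sp2240, and 0.880% in M1023, 0.410% in M512 and 0.729% in the unpaired library. miR-133a-5p, the other strand of the miR-133a hairpin, took 0.0539% to 0.0913% of the UIS reads and ranked between 55 and 61.

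At the IS the 3 microRNAs were low in every lesion, and the lesions fell into different levels. Together they took 0.159% of the reads in the granuloma of Sp600, 0.00934% in that of Sp976, 0.0127% and 0.0108% in the *Spalax* fibrosarcomas of Sp2230 and Sp2240, 0.00925% in the fibrosarcoma of M1019, and 2.48% and 3.42% in those of M1023 and M512. At the UIS the same sum was 27.4% to 36.8%. Over the 6 animals with both sides it differed by -36.6 to -23.9 percentage points, with a mean of -31.9 ± 5.52 (SD, n = 6 pairs). In 4 lesions, Sp976, Sp2230, Sp2240 and M1019, it lay within 0.00925% to 0.0127% although the libraries came from both species and held 2034574 to 9574014 reads. Over all 14 libraries together the 3 microRNAs took 23.1% of the reads, and all libraries were sequenced on the same lane, so that these 4 shares were 0.0400% to 0.0547% of the share over the lane. The 4 lesions had 24.0 reads of miR-133a-3p per read of miR-1a-3p when their reads were added up, against 29.4 over all libraries. What part of the reads in these 4 lesions came from other libraries of the lane was not tested.

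**Figure D1:**
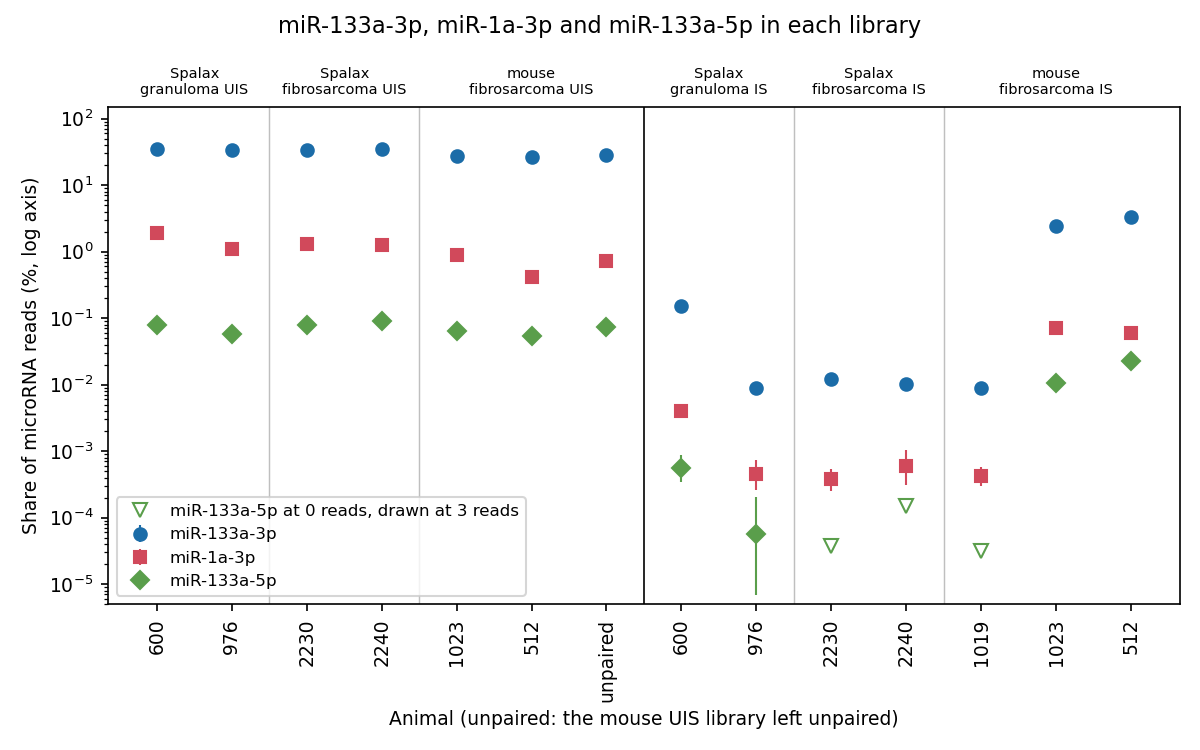
Share of microRNA reads (percent, log axis) of miR-133a-3p (circles), miR-1a-3p (squares) and miR-133a-5p (diamonds) in each of the 14 libraries, UIS left and IS right, with exact 95% counting intervals; open triangles mark 0 reads and are drawn at 3 reads. The 7 UIS libraries lie at 26.9% to 34.8% for miR-133a-3p, and 4 of the 7 IS libraries lie at 0.00883% to 0.0123%.

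miR-133a-3p, which carried most of these reads, had normalized counts of 5702421 and 5263997 at the UIS of Sp600 and Sp976 and of 6896 and 395 in their granulomas. The granuloma of Sp600 thus held 0.121% of the UIS level and that of Sp976 0.00751%. In *Spalax* fibrosarcoma it went from 4712655 to 535 in Sp2230 and from 4842163 to 451 in Sp2240, which left 0.0113% and 0.00932%. In mice it went from 5067258 to 98037 in M1023 and from 7225377 to 128284 in M512, and the unpaired UIS library held 4445837. These mouse fibrosarcomas kept 1.93% and 1.78% of their UIS level. The fibrosarcoma of M1019 held only 307, or 0.00550% of the mean of the mouse UIS libraries. In none of the 3 conditions did the sides overlap, but how many of all microRNAs tested were separated in this way was not counted. How much was left depends on the scaling: as shares of reads, the lesions held 0.444% of the UIS level in Sp600, 0.0264% in Sp976, 0.0370% in Sp2230, 0.0297% in Sp2240, 8.76% in M1023 and 12.4% in M512, and that of M1019 0.0320% of the mouse UIS mean.

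miR-1a-3p, the strand that the muscle literature calls miR-1, was lowest in the same 4 lesions. Its normalized counts fell from 308805 and 172003 at the UIS of Sp600 and Sp976 to 180 and 20.3 in the granulomas. In the *Spalax* fibrosarcomas of Sp2230 and Sp2240 they were 16.3 and 26.0 against 186762 and 175848 at the UIS. Behind these low values stand 16 reads in the granuloma of Sp976 and 30 and 12 reads in the *Spalax* fibrosarcomas. In M1023 and M512 the counts were 2908 and 2302 against 162565 and 110216, the unpaired UIS library held 113269, and the fibrosarcoma of M1019 held 14.5. Relative to the UIS the lesions thus held 0.0582% in Sp600, 0.0118% in Sp976, 0.00875% in Sp2230, 0.0148% in Sp2240, 1.79% in M1023 and 2.09% in M512, and that of M1019 0.0113% of the mouse UIS mean. As shares of reads these values were between 0.0285% in Sp2230 and 14.6% in M512.

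miR-133a-5p reached the limit of the sequencing depth in 4 lesions. It was counted with 9163 and 7130 reads at the UIS of Sp600 and Sp976 and with 20 and 2 reads in their granulomas. In *Spalax* fibrosarcoma 9441 and 11917 reads at the UIS of Sp2230 and Sp2240 stood against 0 reads at the IS, which makes the normalized count at least 6957-fold lower in Sp2230 and at least 1971-fold lower in Sp2240. The 2 reads in the granuloma of Sp976 correspond to a count 3576-fold lower than at the UIS, with a counting interval of 989 to 29531. The fibrosarcoma of M1019 also had 0 reads, at least 11506-fold below the mean of the mouse UIS libraries. Mice M1023 and M512 kept 591 and 794 reads against 8474 and 7539 at the UIS, which is 3.67% and 6.09% of the UIS level with the size factors and 16.6% and 42.6% as shares of reads.

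The differences between the sides were tested with limma on log2(normalized count + 1), a scale that understates changes of microRNAs with few reads, over every microRNA that reached 10 in 2 or more *Spalax* or in 3 or more mouse libraries, with Benjamini-Hochberg adjustment. In both species miR-133a-5p passed this filter only with the UIS libraries, so the filter favored a lower call for it. All 3 microRNAs were lower at the IS in *Spalax* granuloma, beside 22.8% of the 447 microRNAs tested that were called lower. The log2 difference was -11.86 ± 0.90 (SE) for miR-1a-3p (limma, adjusted p = 0.000213), -11.69 ± 1.10 for miR-133a-3p (adjusted p = 0.000326) and -10.15 ± 0.85 for miR-133a-5p (adjusted p = 0.000259). In *Spalax* fibrosarcoma, where 22.1% of the 447 were called lower, the differences were -13.03 ± 0.90 for miR-1a-3p (limma, adjusted p = 0.000151) and -13.24 ± 1.10 for miR-133a-3p (adjusted p = 0.000404). For miR-133a-5p limma gave an adjusted p of 0.000111, and the size is given by the lower bounds above and, over the group means with 3 reads per lesion, as at least 2971-fold lower. In each of these *Spalax* comparisons the direction was the same in 2 of 2 animals. The size in granuloma depended on the animal: without the granuloma of Sp600 the differences were -13.40, -13.76 and -11.58 for miR-1a-3p, miR-133a-3p and miR-133a-5p, and without that of Sp976 they were -10.32, -9.63 and -8.71.

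In mouse fibrosarcoma, where 25.6% of the 547 microRNAs tested were called lower, all 3 were lower as well. The log2 differences were -8.07 ± 1.89 (SE) for miR-1a-3p (limma, adjusted p = 0.0109), -8.44 ± 2.17 for miR-133a-3p (adjusted p = 0.0157) and -7.43 ± 2.37 for miR-133a-5p (adjusted p = 0.0329). These values turned on 1 library. Without the fibrosarcoma of M1019 the differences were -5.61 ± 0.32, -5.61 ± 0.32 and -4.34 ± 0.41 (limma, adjusted p = 0.000268, 0.000268 and 0.00139). With the animal as a replicate block, where the estimate rests on M1023 and M512 since the other libraries have no partner, they were -5.69, -5.75 and -4.40. The call for miR-133a-5p did not hold with reads scaled to the library total (adjusted p = 0.0581), with edgeR's quasi-likelihood test on the recovered reads (0.0622), with a pseudocount of 0.1 (0.0621), or without the UIS library of M1023 (0.0867), of M512 (0.0899) or the unpaired one (0.0833), and that for miR-133a-3p did not hold without the UIS library of M512 (0.0531).

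**Figure D2:**
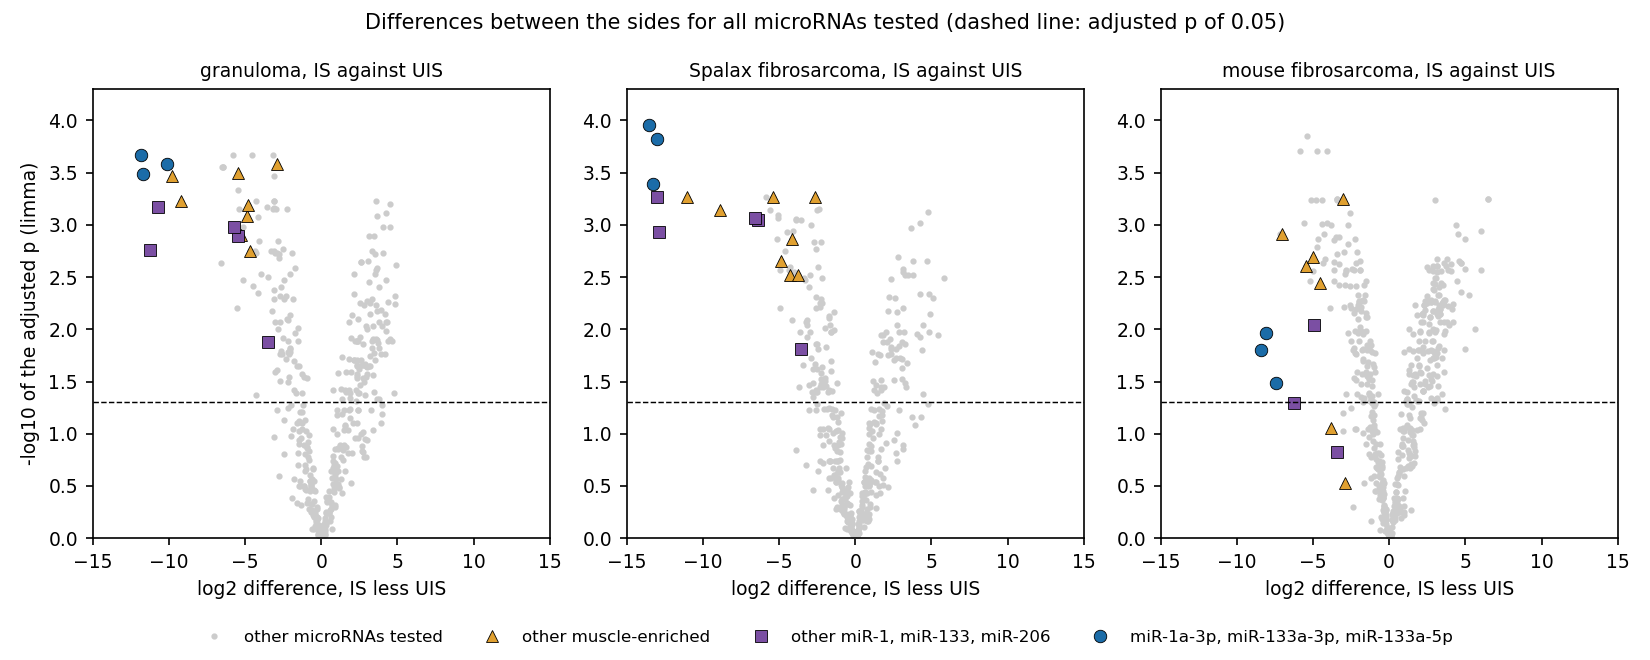
Log2 difference between IS and UIS (horizontal axis) against -log10 of the adjusted p (limma, vertical axis) for the 447 *Spalax* and 547 mouse microRNAs tested. miR-1a-3p, miR-133a-3p and miR-133a-5p (circles) lie at -10.15 to -13.56 in the *Spalax* panels and at -7.43 to -8.44 in the mouse panel; the fitted -13.56 belongs to miR-133a-5p in *Spalax* fibrosarcoma, which had 0 reads at the IS.

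The scale as a whole depends on the size factors. With reads scaled to the library total, the median log2 difference over all microRNAs tested was 1.71 in granuloma against 0.13 with the size factors. It was 1.14 against -0.23 in *Spalax* fibrosarcoma and 2.24 against 0.21 in the mice. The calls in granuloma were then 247 higher and 48 lower, against 114 and 102. Those in *Spalax* fibrosarcoma were 195 and 40 against 68 and 99, and those in the mice 376 and 31 against 176 and 140. miR-133a-3p and miR-1a-3p were lower at the IS under this scaling too, with log2 differences of -9.84 and -9.89 in granuloma, -11.55 and -11.13 in *Spalax* fibrosarcoma and -6.06 and -5.62 in mouse fibrosarcoma.

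The granuloma and the fibrosarcoma of *Spalax* were compared directly. At the IS, where 15.4% of the 447 microRNAs were called higher in granuloma, miR-133a-5p was called higher in granuloma (limma, adjusted p = 0.0358), with 20 and 2 reads against 0 and 0, at least 3.38-fold over the group means. This call was lost in 9 of 14 alternatives, among them reads scaled to the library total (limma, adjusted p = 0.131), no filter (0.0534) and leaving out either fibrosarcoma library (0.0974 and 0.0903). The log2 difference was 1.52 ± 0.90 (SE) for miR-1a-3p (limma, adjusted p = 0.319) and 1.75 ± 1.10 for miR-133a-3p (adjusted p = 0.342, and 0.0198 with DESeq2), and neither passed the threshold. All of these values turned on the granuloma of Sp600. Without it the differences were -0.03 for miR-1a-3p, -0.31 for miR-133a-3p and 1.82 for miR-133a-5p (limma, adjusted p = 1.00, 0.662 and 0.0804), and without the granuloma of Sp976 they were 3.06, 3.81 and 4.70 (adjusted p = 0.00748, 0.00272 and 0.00313).

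The change from UIS to IS in granuloma less that in *Spalax* fibrosarcoma was 1.17 ± 1.28 (SE) for miR-1a-3p, 1.55 ± 1.55 for miR-133a-3p and 3.41 ± 1.21 for miR-133a-5p on the log2 scale (limma, adjusted p = 0.689, 0.647 and 0.137). None passed the threshold, beside 3.8% of the microRNAs tested, and DESeq2 alone among the other tests and scalings called miR-133a-5p (adjusted p = 0.00979). Without the granuloma of Sp976 the differences were 2.71, 3.61 and 4.85 (limma, adjusted p = 0.0542, 0.0219 and 0.0224), and without that of Sp600 they were -0.37, -0.51 and 1.98 (adjusted p = 0.862, 0.635 and 0.256). At the UIS the granuloma-bearing and the fibrosarcoma-bearing *Spalax* differed by 0.35 ± 0.90 for miR-1a-3p, 0.20 ± 1.10 for miR-133a-3p and -0.15 ± 0.85 for miR-133a-5p (SE; limma, adjusted p = 1.00 for each). In this comparison limma called 0 of 447 microRNAs, with 5 at an unadjusted p under 0.05, and edgeR and DESeq2 called 0 as well. These comparisons use the same libraries as the comparisons between the sides.

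The ratio of these microRNAs to each other is taken within a library and does not depend on the size factors. At the UIS there were 18.5, 30.6, 25.2 and 27.5 reads of miR-133a-3p per read of miR-1a-3p in Sp600, Sp976, Sp2230 and Sp2240. The mouse libraries had 31.2 in M1023, 65.6 in M512 and 39.3 in the unpaired library, all above the *Spalax* libraries. On the log2 scale *Spalax* lay at 4.65 ± 0.31 (SD, n = 4) and mice at 5.43 ± 0.55 (SD, n = 3), a difference of -0.78 (exact permutation test, two-sided, p = 0.0571, the smallest p that 4 against 3 libraries allow; Benjamini-Hochberg adjusted over 4 ratio tests 0.229).

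At the IS the same ratio was 38.4 in the granuloma of Sp600 and 19.5 in that of Sp976, 32.7 and 17.3 in the *Spalax* fibrosarcomas of Sp2230 and Sp2240, and 21.2, 33.7 and 55.7 in the fibrosarcomas of M1019, M1023 and M512. The lesions with few reads gave wide counting intervals, 11.8 to 34.5 for Sp976 and 9.71 to 34.1 for Sp2240. Within animals the log2 ratio was higher at the IS in 3 pairs and lower in 3, with a mean difference of -0.0015 ± 0.66 (SD, n = 6 pairs; exact sign-flip permutation test, two-sided, p = 1.00). The largest shift was that of Sp600, from 18.5 to 38.4. While the normalized count of miR-133a-3p was between 51.7-fold and 13318-fold lower at the IS of these animals, the ratio moved by at most 1.06 on the log2 scale. The 13318-fold value is that of Sp976. The lesions of Sp976, Sp2230 and Sp2240 are among those with the lowest shares above. What part of their reads, and so of their ratios, came from other libraries of the lane was not tested.

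The strands of the miR-133a hairpin were read in a very uneven ratio. At the UIS there were 439, 581, 415 and 377 reads of miR-133a-3p per read of miR-133a-5p in Sp600, Sp976, Sp2230 and Sp2240, and 436, 499 and 389 in M1023 and M512 and the unpaired library. The species overlapped, and their log2 means of 8.80 ± 0.27 (SD, n = 4) and 8.78 ± 0.18 (SD, n = 3) differed by 0.03 (exact permutation test, two-sided, p = 0.914; adjusted over 4 ratio tests 1.00). At the IS the ratio was 276 in the granuloma of Sp600, with a counting interval of 179 to 453, 230 in the fibrosarcoma of M1023 (212 to 249) and 145 in that of M512 (136 to 156). The granuloma of Sp976 gave 156 from 2 reads of the 5p strand, with an interval of 42.8 to 1294. The 3 lesions without a 5p read allow only lower bounds of 327 for Sp2230, 69.3 for Sp2240 and 282 for M1019.

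In the 3 animals with more than 3 reads of the 5p strand on both sides, the log2 ratio was lower at the IS in each, with a mean difference of -1.12 ± 0.58 (SD, n = 3 pairs). The exact sign-flip permutation test cannot go below p = 0.25 with 3 pairs, which is the value it gave (two-sided; adjusted over 4 ratio tests 0.5). The difference was -0.67 in Sp600, -0.92 in M1023 and -1.78 in M512, so the 5p strand had fallen less than the 3p strand in all 3. Taking only lesions with 5p reads favors low ratios, and the bounds of 327 and 282 in Sp2230 and M1019 lie above the ratios of these 3 lesions.

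**Figure D3:**
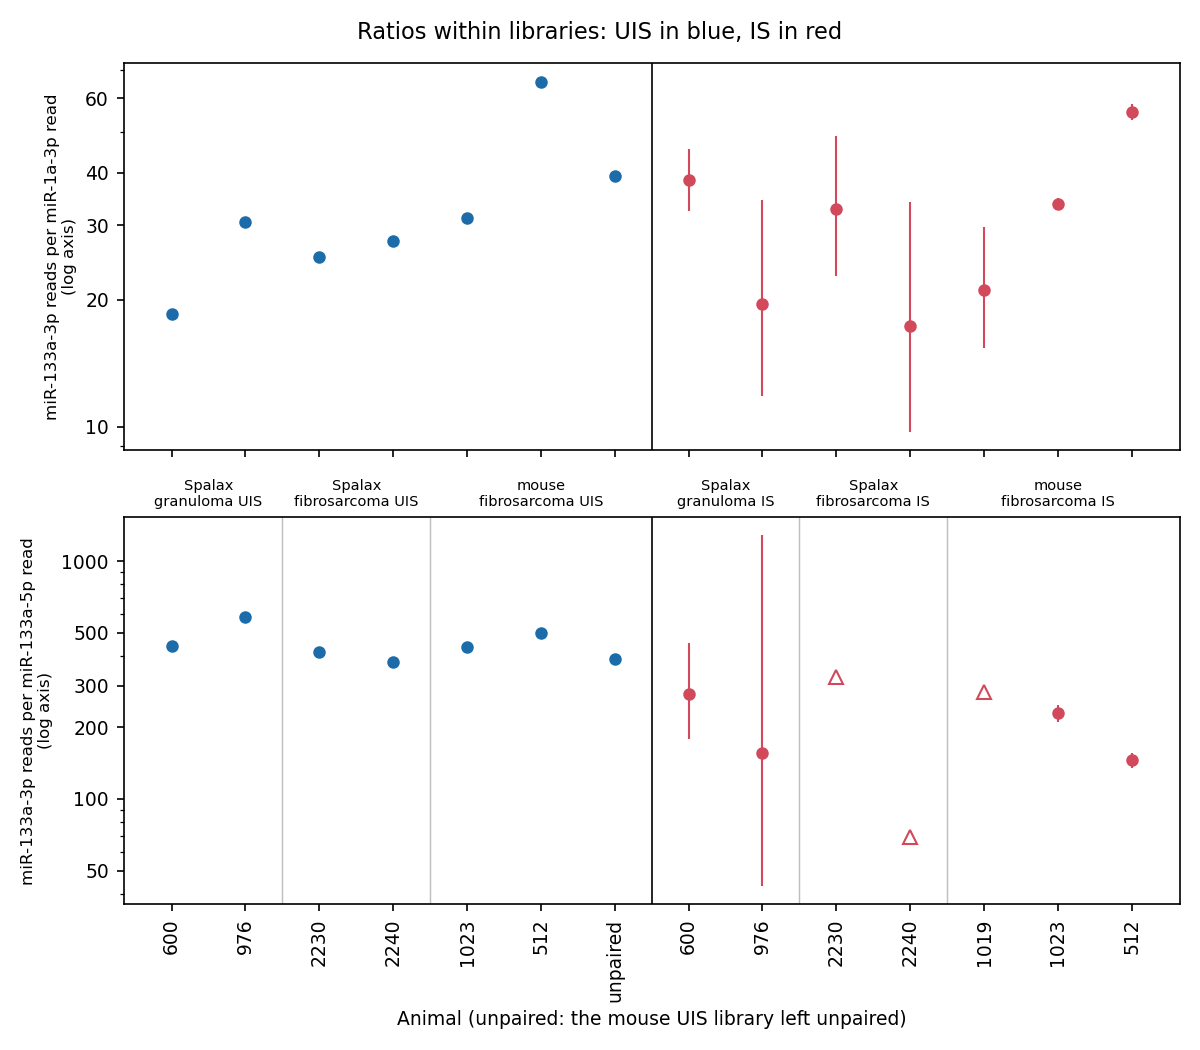
Reads of miR-133a-3p per read of miR-1a-3p (top) and per read of miR-133a-5p (bottom), both on log axes, in each library with exact 95% counting intervals; UIS in blue, IS in red, and open triangles for lower bounds where the 5p strand had 0 reads. The strand ratio is 377 to 581 at the UIS and 145 to 276 in the 4 lesions with a 5p read, and the lower bounds of 327 for Sp2230 and 282 for M1019 lie above that last range.

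The other products of the same families were low in the *Spalax* lesions too. Of the 8 other names of the miR-1, miR-133 and miR-206 families, 5 were tested in *Spalax*, and all 5 were lower at the IS in granuloma and in fibrosarcoma, beside 22.8% and 22.1% of all microRNAs tested. Their median log2 difference was -5.75 in granuloma and -6.57 in fibrosarcoma, against 0.13 and -0.23 over all microRNAs tested. In fibrosarcoma 3 of the 5 had 0 reads at the IS, and with these set to 3 reads per library the median was -4.60. Of the 5, miR-1a-1-5p, miR-1a-2-5p, miR-133b-5p and miR-206-3p passed the filter only with the UIS libraries, so the filter favored lower calls. The same held for miR-1a-1-5p in mice. miR-206-3p, the relative of miR-1 made in skeletal muscle, had 13543, 17214, 21650 and 21217 reads at the UIS of Sp600, Sp976, Sp2230 and Sp2240 and 56, 0, 4 and 1 reads at the IS. miR-133b-3p had 44724 to 64430 reads at the *Spalax* UIS and 143, 6, 7 and 5 reads in the lesions of Sp600, Sp976, Sp2230 and Sp2240. In mice 3 of the 8 were tested, and 1 of them, miR-1a-1-5p, was lower at the IS, beside 25.6% of all tested (log2 difference -4.92 ± 1.09, limma, adjusted p = 0.00911). miR-133b-3p, at -6.28 ± 2.31, had an adjusted p of 0.0512 and miR-206-3p, at -3.43 ± 1.84, one of 0.148.

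The mouse fibrosarcoma of M512 held more of miR-206 and miR-133b, relative to the UIS, than of miR-1a-3p and miR-133a-3p. miR-206-3p had a normalized count of 3703 there, above the 1426 at the UIS of the same mouse and the 2159 and 2978 of the other UIS libraries, whereas it was 161 in the fibrosarcoma of M1023 and 11.2 in that of M1019. miR-206-5p, with at most 1 read in the mouse UIS libraries, had 78 reads in this fibrosarcoma, and miR-133b-5p, with 1 to 7 reads at the mouse UIS, had 242. miR-133b-3p stood at 17.6% of its UIS level and miR-206-3p at 260%, against 1.78% for miR-133a-3p and 2.09% for miR-1a-3p. As shares of reads these were 123%, 1817%, 12.4% and 14.6%, so whether miR-133b-3p was below or above its UIS level depends on the scaling. The reads of miR-133a-3p per read of miR-133b-3p were 69.8 to 87.5 in all 7 UIS libraries, 8.21 in this fibrosarcoma and 22.3 to 140 in the other lesions. Here miR-208b-3p stood at 706% of the UIS level, from 513 reads against only 42 at the UIS. The UIS of M512 was the lowest for it, at a normalized count of 80.7. The mouse UIS libraries reached 1721 with a mean of 1057, against 570 in this fibrosarcoma. miR-499-5p, at 139%, likewise had its lowest mouse UIS count in M512, 32.7 against up to 623. The fibrosarcoma of M1023 had the same order, with miR-133b-3p at 4.55% and miR-206-3p at 7.46% against 1.93% for miR-133a-3p and 1.79% for miR-1a-3p. The lesions of Sp600 and M1019 had it too, and those of Sp976, Sp2230 and Sp2240 did not.

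The 5p strand of miR-1 is listed for each of its 2 hairpin genes and was rare. In *Spalax* the UIS reads were nearly even, with 59 and 74 reads for miR-1a-1-5p and miR-1a-2-5p in Sp600, 64 and 74 in Sp976, 50 and 56 in Sp2230 and 106 and 121 in Sp2240. In mice miR-1a-1-5p had 80, 112 and 174 reads in M1023, M512 and the unpaired library and miR-1a-2-5p only 3, 8 and 6. The first was thus 0.80 to 0.89 times the second in *Spalax* and 14.0 to 29.0 times in mice. The *Spalax* sequence of these strands is not used here, and the part that matching to mouse names plays in the ratio was not tested.

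Other microRNAs that are enriched in muscle divided by how far they fell. Of 9 names, 8 were tested in *Spalax*, and all 8 were lower at the IS in both lesions, beside 22.8% and 22.1% of all microRNAs tested, with a median log2 difference of -5.06 in granuloma and -4.55 in fibrosarcoma, or -4.84 and -4.19 with the 1 name at 0 reads in each set to 3 reads per library. Among them miR-208b-3p, miR-499-5p, miR-499-3p and miR-486a-3p passed the filter only with the UIS libraries, so the filter favored lower calls. miR-208b-3p and miR-499-5p, which lie in introns of myosin heavy chain genes, fell in granuloma, with log2 differences of -9.22 ± 1.01 (SE) and -9.79 ± 0.94 (limma, adjusted p = 0.000596 and 0.000342). miR-22-3p, which many tissues make, fell by 2.93 ± 0.25 (adjusted p = 0.000259). The size of its fall depends on the scaling. The granulomas of Sp600 and Sp976 held 15.3% and 11.3% of its UIS level with the size factors. As shares of reads they held 56.3% and 39.7%. In mice 7 were tested, 5 were lower, beside 25.6% of all tested, and 2, miR-208b-3p and miR-499-5p, did not pass (log2 differences of -2.91 ± 2.27 and -3.82 ± 1.67, limma, adjusted p = 0.299 and 0.0882). miR-486a-5p, which is also a red cell microRNA, kept 0.708% of the mouse UIS mean in the fibrosarcoma of M1019 and 2.92% and 2.52% of the UIS level in those of M1023 and M512. As shares of reads these values were 4.55%, 13.2% and 17.7%. The list of red cell markers above contains miR-486a-5p itself, and the part of red cells in its change was not tested.

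**Figure D4:**
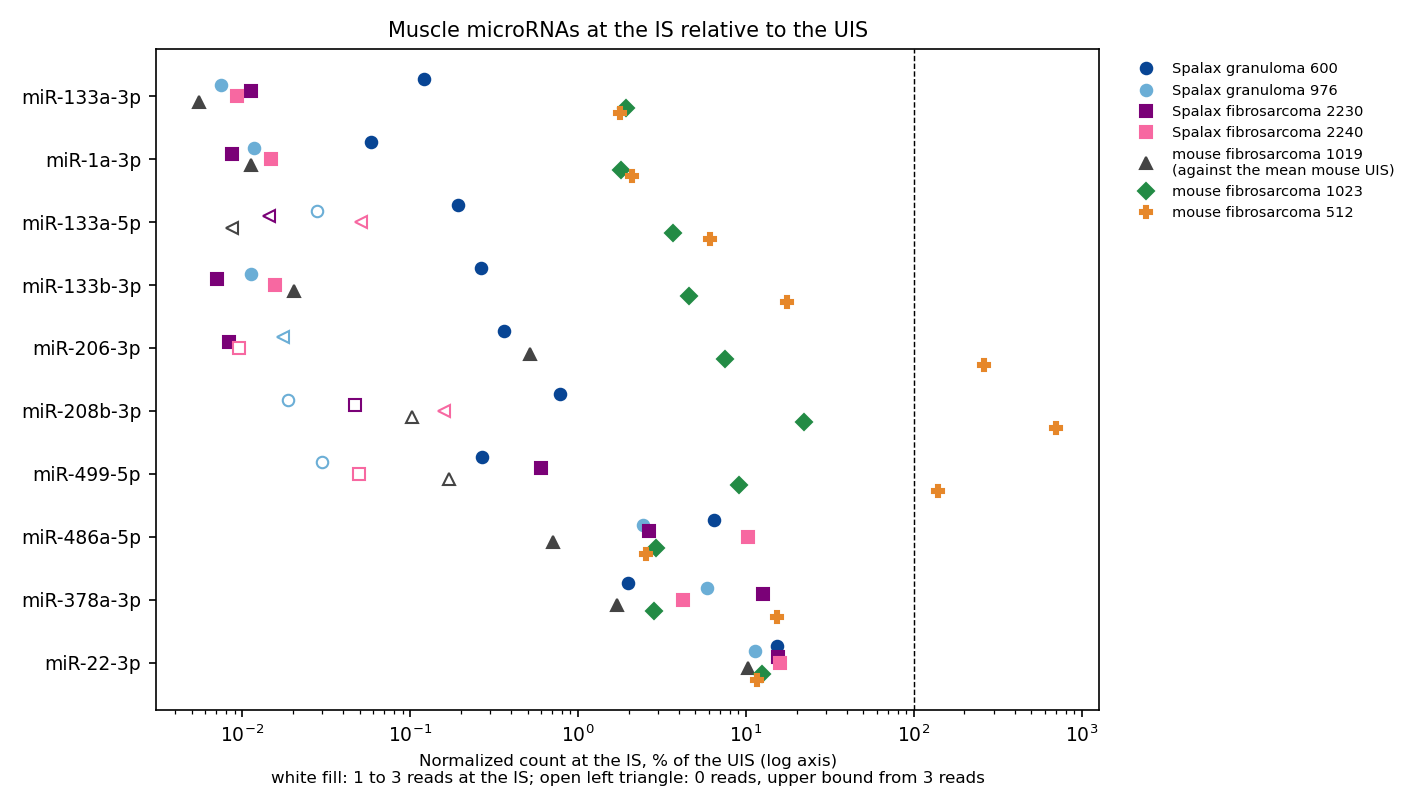
Normalized count at the IS as percent of the UIS of the same animal (log axis; M1019 against the mean of the mouse UIS libraries) for the 3 microRNAs and 7 other muscle microRNAs in the 7 lesions; white symbols rest on 1 to 3 reads and left triangles are upper bounds from 0 reads. miR-133a-3p lies at 0.00550% to 1.93%, miR-22-3p at 10.3% to 15.8%, and miR-206-3p, miR-208b-3p and miR-499-5p of M512 lie above 100%. The UIS counts of miR-208b-3p and miR-499-5p in M512 were the lowest of the mouse UIS libraries.

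Among the microRNAs whose log2 level was most like that of miR-1a-3p or miR-133a-3p over the libraries, products of the same families came first in *Spalax*. Over the 8 *Spalax* libraries the 5 closest to miR-1a-3p of 446 were miR-133a-3p, miR-1a-2-5p, miR-133b-3p, miR-1a-1-5p and miR-133a-5p, with Pearson's r of 0.998 to 0.994, and those closest to miR-133a-3p were miR-1a-3p, both 5p strands of miR-1, miR-133b-3p and miR-206-3p (0.998 to 0.996). Over the 6 mouse libraries the 5 closest to each, of 546, were the other of these microRNAs, miR-133a-5p, miR-1a-1-5p, miR-676-3p and miR-28a-3p, with r of 0.996 to 0.973 for miR-1a-3p and 0.996 to 0.978 for miR-133a-3p. The median r over all microRNAs was between -0.08 and -0.01. These correlations describe libraries that fall into 2 sides and share the same size factors.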

How the data were processed

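Small RNA libraries were made by the authors with the TruSeq small RNA kit and sequenced on 1 lane. The authors trimmed adaptors and mapped the reads with mirDeep. The labels' processing notes list TopHat 1.4.1, HTSeq, DESeq and GRCm38, and the mapping settings are not given in the sources used here. The unit of the deposited values is a signal: the authors divided the reads of each microRNA by the library's median-of-ratios size factor, as DESeq2 gives it. Whole reads were recovered for 100% of them (tolerance 0.01). The *Spalax* size factors rest on all 14 libraries and those of mice on 6, so normalized counts were compared only within a species.

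Main tests used limma 3.58.1 (R 4.3.3) on log2(value + 1) with eBayes trend and 1 mean for each condition and side, the 8 *Spalax* libraries together and the 6 mouse libraries separately, and a Benjamini-Hochberg threshold of 0.05. On the recovered reads edgeR 4.0.16 made 212 calls in granuloma (limma 216), 163 in *Spalax* fibrosarcoma (167) and 311 in the mice (316). DESeq2 1.42.0, other scalings, pseudocounts, filters and leaving out each library were the alternatives. The animal pairs IS and UIS libraries of the same number. Their deviations from the group means had correlations of 0.0933 in granuloma, 0.00405 in *Spalax* fibrosarcoma and -0.107 and 0.122 in mice. Ratios of reads were tested by exact permutation (SciPy 1.17.1), and summed shares were not tested. The fits were also run on simulated reads with the same spread for every microRNA. That run does not cover microRNAs whose lesions differ as widely as those reported here.

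The members and lists were chosen with earlier results of these data known. MicroRNAs were named by a rule: the 3 members, other names of the miR-1, miR-133 and miR-206 families with more than 3 reads in a library, 9 other muscle-enriched microRNAs, and the 5 closest by correlation.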

Additional observations from a re-analysis of the deposited data

How the results depend on the processing

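Leaving out each library in turn moved the calls over all microRNAs to 128 to 234 in granuloma, 76 to 179 in *Spalax* fibrosarcoma, 189 to 289 in the mice, 31 to 87 between the *Spalax* lesions and 0 to 35 for the difference of the *Spalax* changes. That last count, 17, was 61 with DESeq2, 43 with reads scaled to the library total, 0 with a pseudocount of 0.1 and 0 without a filter. With the replicate block, which pairs the sides by animal, it was 5, and the block changed no call of the 3 microRNAs. The falls of miR-1a-3p, miR-133a-3p and miR-133a-5p in granuloma and in *Spalax* fibrosarcoma kept their call in 15 of 15 alternatives each, and in the mice in 13, 12 and 7 of 13. Without each library in turn, the difference between the *Spalax* lesions was -0.026 to 3.06 for miR-1a-3p and -0.31 to 3.81 for miR-133a-3p, and the difference of the changes -0.37 to 2.71 and -0.51 to 3.61. At the UIS these ranges were -0.075 to 0.77 for miR-1a-3p and -0.41 to 0.10 for miR-133a-5p. The difference between the sides in the log2 ratio of miR-133a-3p to miR-1a-3p was -0.21 to 0.13, and that between the species in the strand ratio -0.10 to 0.12. The summed share changed by -33.5 to -31.0 points without each library, and by -63.2 when the 10 most abundant other microRNAs were left out of the total. The cause of these shifts was not tested. Depth limits miR-133a-5p, which had 0 to 2 reads in 4 lesions.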
